A study of Arabidopsis thaliana with 6 samples.

Results

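Class III peroxidases are secreted heme enzymes of plants, encoded in *Arabidopsis* by a large gene family. They use hydrogen peroxide to oxidize phenolic compounds of the cell wall, as in the polymerization of lignin and the cross-linking of wall proteins, and they can also generate reactive oxygen species that loosen the wall. Many are expressed mainly in roots, where they are known from root hairs, the endodermis and the xylem, and others are known from the response to pathogens and wounding.

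The 60 genes considered here were taken by locus from the class III peroxidase family, and 43 of them have an ATH1 probe set assigned to that gene alone. Another 6 lie on 3 probe sets that each match 2 of the genes, 2 are named only through a table of the study whose entries were picked by their change on these arrays, and 9 have no assigned probe set and are not analysed here. These groups are kept apart below, and all counts are over the 43. Transcripts were measured in whole seedlings (root, hypocotyl and cotyledon) of the mutant *rcb-10* and of the wild type Col-0, with 3 independent biological replicates of each genotype, on 6 ATH1 arrays. In the mutant, which is in the Col-0 ecotype, a T-DNA interrupts AT4G28590, the gene *RCB* (regulator of chloroplast biogenesis), within the second intron, and it is the only mutant allele on these arrays. All seedlings were stratified for 4 days and then grew for 4 days in red (R) light of 10 μmol m-2 s-1. *RCB* has no probe set assigned to it alone, so its own transcript was not used here to check the labels.

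Values are linear signals in arbitrary units, each array having been scaled to the same trimmed mean before deposit. A probe set was taken as above background where its signal exceeded 43.8, the highest signal of the TrpnX control probe sets on any array. On each array, 19.5% to 21.7% of the 22746 probe sets tested lay at or below that level. Across probe sets, log2 signals correlated at 0.945 to 0.953 between arrays of 1 genotype and at 0.919 to 0.928 between genotypes. The ratio of 3′ to 5′ signal for GAPDH was 2.56 to 2.85 in *rcb-10* and 2.30 to 3.21 in Col-0, and for actin it was 10.8 to 12.6 in *rcb-10* and 9.07 to 14.1 in Col-0. RCA, the Rubisco activase of green tissue, had 22251 to 24741 in *rcb-10* and 21896 to 23990.2 in Col-0, and PYK10, a beta-glucosidase of roots and hypocotyls, had 18652 to 20026 in *rcb-10* and 18382 to 23276 in Col-0. RCA and PYK10 were thus high in each genotype, each as the only measured gene of 8 listed for cotyledon mesophyll and 11 for the root. The study describes *rcb-10* seedlings as tall and albino in R light, so these genes alone do not show a like make-up of tissues. None of the 8 listed xylem markers has a probe set assigned to it alone in the probe table used.

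Peroxidase genes moved in both directions in *rcb-10*. Of the 43 genes, 6 were higher and 7 were lower at an adjusted p under 0.05 (limma, Benjamini-Hochberg adjustment over all 22746 probe sets) and a fold of at least 2. The same rule called 2.80% of all probe sets higher and 4.41% lower, 7.22% together, against 13 of 43 peroxidase genes. With no fold threshold, 18 of the 43 passed, 8 higher and 10 lower, where 6.76% of all probe sets were higher and 10.2% lower, 16.9% together. The arrays of the genotypes did not overlap for 28 of the 43, 12 higher and 16 lower, against 17.4% of all probe sets higher and 23.1% lower, 40.6% together. The median size of the log2 change, regardless of sign, was 0.89 over the 43 genes and 0.38 over all probe sets. The median with its sign was 0.02 over the 43 and −0.04 over all probe sets, so that by the median neither direction prevailed in the family. All 6 arrays were above background for 28 of the 43 genes, some arrays for 13 and no array for 2. In whole seedlings, fewer cells of a type and less RNA per cell cannot be told apart. The genes called higher numbered 3 without *rcb-10* replicate 2, and those past the adjusted p at any fold numbered 11 without *rcb-10* replicate 2 and 10 without *rcb-10* replicate 3. Over all probe sets, 3853 passed the adjusted p at any fold with all 6 arrays, 1432 without *rcb-10* replicate 2 and 1256 without *rcb-10* replicate 3, and at most 2224 when any other array was left out.

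**Figure D1:**
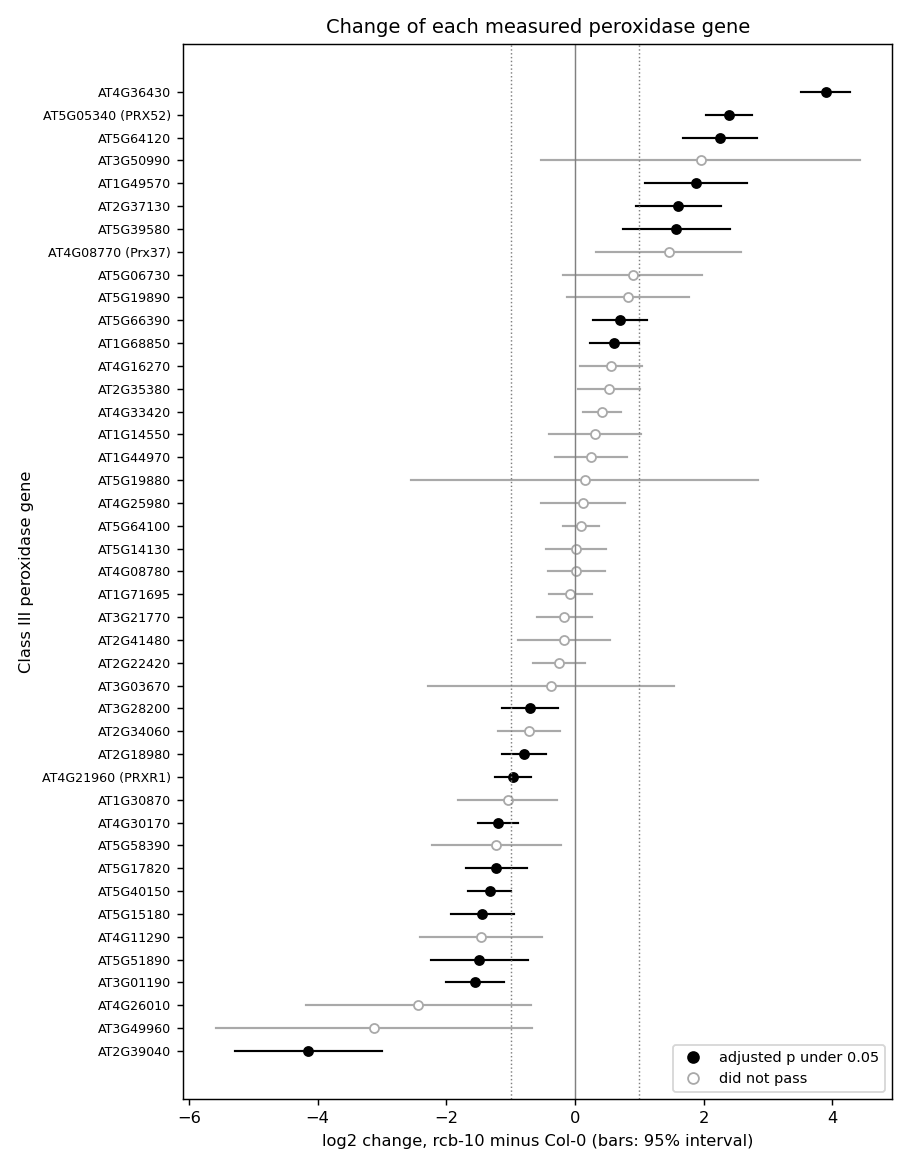
Log2 change (*rcb-10* minus Col-0) of each of the 43 measured class III peroxidase genes, ordered by size, with the 95% interval from limma as a bar; filled points passed an adjusted p under 0.05, open points did not, and dotted lines mark a 2-fold change. The 8 higher and 10 lower genes that passed lie at both ends of the order, and most of the widest intervals belong to genes with signals near or below background.

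The largest rise past the test was that of AT4G36430, a putative peroxidase gene. It gave signals of 1265, 1484 and 1408 in *rcb-10*, against 80.1, 108 and 92.5 in Col-0. Every *rcb-10* array was thus more than 10 times as high as any Col-0 array. The mean was 1386 ± 111 in *rcb-10* and 93.5 ± 13.9 in Col-0 (SD, n = 3 arrays each), a 14.9-fold difference (log2 change 3.90, 95% interval 3.52 to 4.28, adjusted p = 0.00381 in limma).

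PRX52 (AT5G05340), whose product is known for lignin synthesis in stem fibres, gave 273, 277 and 258 in *rcb-10*, against 59.8, 44.5 and 51.4 in Col-0. The Col-0 signals lay just above the background level of 43.8, and the *rcb-10* arrays differed little among themselves. The log2 change was 2.39 (standard error 0.14, adjusted p = 0.00381 in limma), or 5.22-fold. PRX71 (AT5G64120), which is known to act on the cell wall when the wall is damaged and in lignification, gave 6295, 5981 and 6604 in *rcb-10*, against 1814, 1012 and 1262 in Col-0. The mean was 6293 ± 312 in *rcb-10* and 1363 ± 410.0 in Col-0 (SD, n = 3 arrays each; log2 change 2.25, adjusted p = 0.00656 in limma). Col-0 replicate 1 was the highest of the Col-0 arrays for both genes and still far below every *rcb-10* array. AT4G36430, PRX52 and PRX71 passed whichever of the 6 arrays was left out.

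The other 3 called rises were less even. AT1G49570, a putative peroxidase gene, gave 550.1, 695 and 360.2 in *rcb-10*, against 116, 194 and 124 in Col-0. Its *rcb-10* arrays spread more widely than those of the genes above, but the lowest of them was still above the highest Col-0 array (log2 change 1.88, standard error 0.32, adjusted p = 0.0187 in limma). The gene of peroxidase 21, AT2G37130, gave 7552, 10386 and 10445 in *rcb-10*, against 3782, 2167 and 3539 in Col-0. Here *rcb-10* replicate 1 and Col-0 replicate 2 were the lowest of their groups, and the change was 3.05-fold (log2 change 1.61, standard error 0.27, adjusted p = 0.0179 in limma). AT5G39580, a gene known from the growth of root hairs in the cold, gave 1005, 781 and 938 in *rcb-10*, against 221, 502 and 252 in Col-0. Col-0 replicate 2 stood above the other Col-0 arrays for AT5G39580 and AT1G49570, and below them for AT2G37130. For AT5G39580 the log2 change was 1.57 (standard error 0.34, adjusted p = 0.0327 in limma). With fewer arrays these calls were often lost, while the log2 changes stayed at 1.66 to 2.14 for AT1G49570, 1.35 to 1.76 for AT2G37130 and 1.34 to 1.93 for AT5G39580. Of the 6 refits that each left out 1 array, AT1G49570 kept its call only in that without *rcb-10* replicate 3 and that without Col-0 replicate 2 (highest adjusted p over the refits 0.0645), and AT5G39580 only in that without Col-0 replicate 2 (highest 0.0943). AT2G37130 failed in the refits that left out *rcb-10* replicate 2 or 3 (highest 0.0629).

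**Figure D2:**
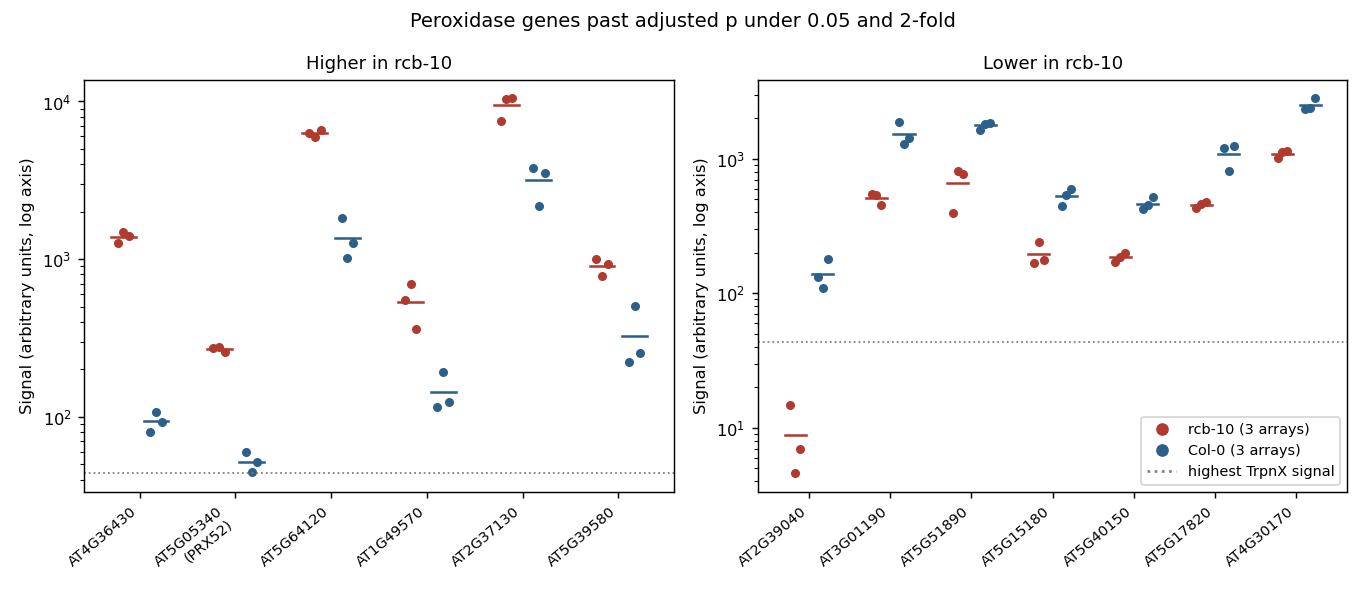
Signals on each array (arbitrary units, log axis) of the 6 peroxidase genes called higher and the 7 called lower in *rcb-10*; points are arrays, short lines are means of 3 arrays, and the dotted line is the highest TrpnX signal, 43.8. In each of the 13 genes the 3 *rcb-10* arrays lie beyond the 3 Col-0 arrays, but the genes were picked by their change on these same arrays. Over all probe sets, the genotypes did not overlap for 40.6%. AT2G39040 is below the dotted line on every *rcb-10* array.

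Below 2-fold, 2 further genes rose. PRX72 (AT5G66390), a peroxidase gene known for lignification and for the Casparian strip of the root endodermis, gave 1321, 1793 and 1822 in *rcb-10*, against 1001, 1076 and 934 in Col-0. AT1G68850 gave 219.6, 212 and 213 in *rcb-10*, against 118, 163 and 146 in Col-0. The groups do not overlap for either gene, and the log2 changes were 0.70 (standard error 0.17, adjusted p = 0.0434 in limma) and 0.61 (standard error 0.15, adjusted p = 0.0478 in limma). Both calls were marginal. PRX72 kept its call only in the refit without *rcb-10* replicate 1 (highest adjusted p over the refits 0.127), and AT1G68850 passed in none of the 6 refits (adjusted p 0.0601 to 0.124).

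Among the falls, AT2G39040 was the only gene that was above background on every Col-0 array and below it on every *rcb-10* array and that passed the test. Its signals were 14.8, 4.58 and 6.89 in *rcb-10*, against 132, 110.2 and 179 in Col-0. The *rcb-10* signals give only an upper bound, so that the gene was at least 3.14-fold lower in *rcb-10* with low signals raised to background (adjusted p = 0.00773 in limma for the signals as deposited). AT3G49960 had the same pattern and did not pass (adjusted p = 0.0869 in limma). It gave 26.2, 18.0 and 2.14 in *rcb-10*, against 111, 54.7 and 110.5 in Col-0, at least 2.00-fold lower.

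The other 6 genes called lower were well above background in both genotypes. The gene of peroxidase 27, AT3G01190, gave 551, 541 and 456 in *rcb-10*, against 1879.6, 1289.5 and 1442 in Col-0. It was 2.95-fold lower in *rcb-10*, where the mean was 516 ± 52.0, against 1537 ± 306 in Col-0 (SD, n = 3 arrays each; log2 change −1.56, adjusted p = 0.00854 in limma). AT5G51890, known from lignification of xylem vessels, gave 396, 818 and 776 in *rcb-10*, against 1653, 1830.3 and 1833 in Col-0. Replicate 1 was clearly below the other *rcb-10* arrays, and the Col-0 arrays were nearly equal (log2 change −1.49, standard error 0.30, adjusted p = 0.0284 in limma). AT5G15180, a putative peroxidase gene, gave 169, 241 and 177 in *rcb-10*, against 446, 537 and 601 in Col-0 (log2 change −1.44, adjusted p = 0.0117 in limma). All of its *rcb-10* arrays were lower than its lowest Col-0 array.

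AT5G40150, another putative peroxidase gene, had tight groups. It gave 171, 186 and 198 in *rcb-10*, against 423, 450.2 and 521 in Col-0 (log2 change −1.33, standard error 0.13, adjusted p = 0.00638 in limma). The gene of peroxidase 57, AT5G17820, known from roots, gave 435, 464 and 474 in *rcb-10*, against 1197, 818 and 1241 in Col-0. The *rcb-10* arrays agreed closely while Col-0 replicate 2 was lower than the other Col-0 arrays (log2 change −1.22, adjusted p = 0.0155 in limma). AT4G30170 gave 1022, 1123 and 1135 in *rcb-10*, against 2367, 2396 and 2814 in Col-0, a 2.30-fold fall (log2 change −1.20, standard error 0.13, adjusted p = 0.00681 in limma). AT2G39040, AT3G01190, AT5G15180, AT5G40150 and AT4G30170 passed whichever array was left out. AT5G51890 kept its call only in the refit without *rcb-10* replicate 1 (highest adjusted p over the refits 0.0827), and AT5G17820 only in those that left out Col-0 replicate 2 or 3 (highest 0.0552).

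Smaller falls were seen in 3 genes. PRXR1 (AT4G21960) gave 5026, 4797 and 5405 in *rcb-10*, against 9362, 10074 and 10300.3 in Col-0, which is 1.95-fold and so just under the fold threshold. Its groups were narrow relative to their distance (log2 change −0.97, standard error 0.11, adjusted p = 0.00835 in limma), and it passed without any 1 of the arrays. AT2G18980 gave 703, 769 and 694 in *rcb-10*, against 1211, 1123 and 1446 in Col-0, without overlap (log2 change −0.80, standard error 0.14, adjusted p = 0.0197 in limma). It is listed by the study as a direct target repressed by PIFs, the transcription factors that phytochromes act against in the light. AT3G03670, the other PIF-repressed target with a probe set of its own, was above background on 1 *rcb-10* array and on no Col-0 array and did not pass (adjusted p = 0.777 in limma). AT3G28200 gave 516, 765 and 697 in *rcb-10*, against 1056, 1044 and 1067 in Col-0. Its Col-0 arrays were almost equal, and its log2 change was −0.70 (standard error 0.17, adjusted p = 0.0481 in limma). AT2G18980 kept its call only in the refits that left out Col-0 replicate 2 or 3 (highest adjusted p over the refits 0.0703), and AT3G28200 in none of the 6 (0.0686 to 0.121).

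**Figure D3:**
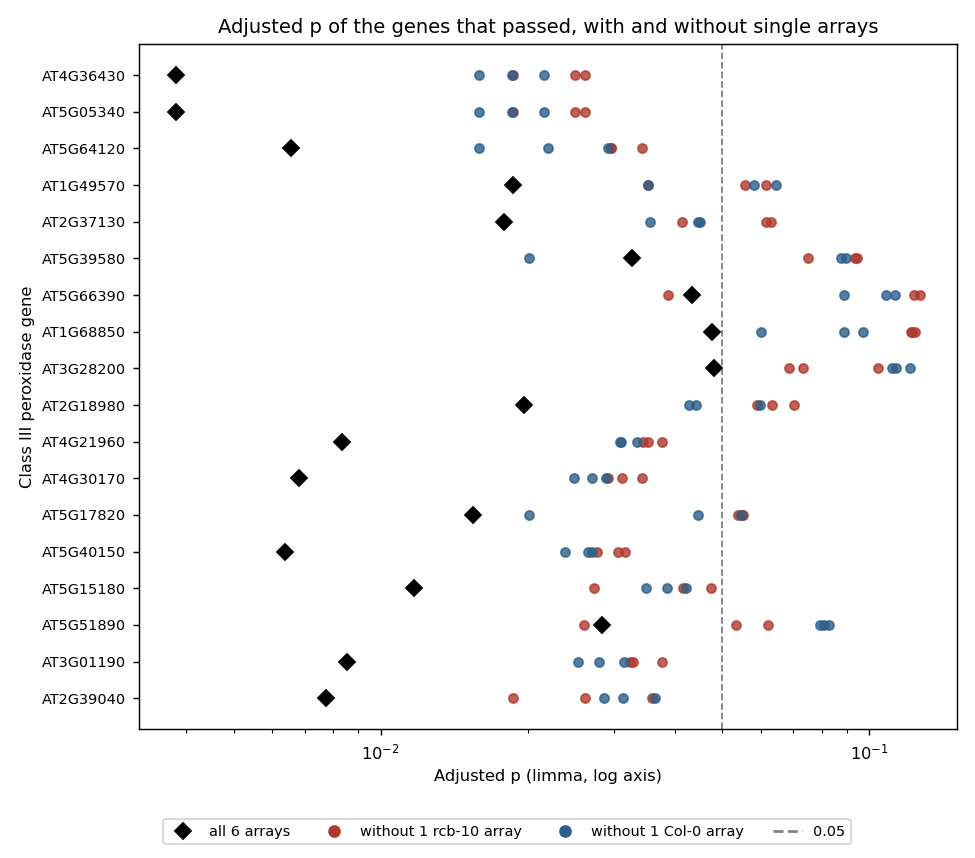
Adjusted p (limma, log axis) of the 18 peroxidase genes that passed, from all 6 arrays (diamonds) and without 1 *rcb-10* or 1 Col-0 array (circles); the dashed line is 0.05. For 9 of the 18 genes all circles lie left of the line, and for AT1G68850 and AT3G28200 all lie right of it.

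Of the 25 genes that did not pass, 7 had fitted changes of at least 2-fold, 5 lower and 2 higher, but AT5G58390 among the lower and PER36 (AT3G50990) among the higher had signals too low to give a fold. Prx37 (AT4G08770), known for acting on wall phenolics in vascular tissue, gave 154, 176 and 179 in *rcb-10*, against 122, 54.5 and 35.3 in Col-0. The *rcb-10* arrays were nearly equal, and the Col-0 arrays spread more than 3-fold (log2 change 1.46, standard error 0.45, adjusted p = 0.0833 in limma). AT4G11290, known from the Casparian strip, gave 77.4, 30.7 and 75.6 in *rcb-10*, against 154, 155 and 157 in Col-0, with 1 *rcb-10* array below background (log2 change −1.46, adjusted p = 0.0540 in limma). With low signals raised to background it passed (log2 change −1.29, adjusted p = 0.0311 in limma). AT5G58390 was below background on all *rcb-10* arrays and on 2 of 3 Col-0 arrays, and PER36, known for the release of seed coat mucilage, was below it on all 6. AT5G19880 was also below background on all 6 arrays. The remaining 18 of the 25 had fitted changes under 2-fold. Among them, AT1G71695 had 3340.3, 3616 and 3700.5 in *rcb-10*, against 3242, 3980.4 and 4054 in Col-0, and a 95% interval of −0.41 to 0.26 for its log2 change. AT3G21770 had 803, 984 and 1129 in *rcb-10*, against 1192, 1092 and 969 in Col-0, with an interval of −0.59 to 0.26. A 2-fold change lies outside both intervals. AT2G34060 had 119, 123 and 92.4 in *rcb-10*, against 212, 149 and 191 in Col-0, without overlap (log2 change −0.72, adjusted p = 0.0599 in limma). Log2 changes were 0.53 for AT2G35380, 0.13 for AT4G25980 and 0.02 for AT5G14130, with adjusted p of 0.122, 0.778 and 0.957 in limma.

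The genes were also grouped by the roles they are known for, in lists chosen with earlier results of these data known. Beside the counts of each list, 6.76% of all probe sets were higher and 10.2% lower past the adjusted p at any fold. Of 8 listed lignification peroxidases of stem and vascular tissue, 7 were measured, of which PRX52 and PRX71 were higher, AT5G51890 was lower and 4 did not pass. The median log2 change of these 7 was 0.42, against −0.04 over all probe sets. Prx37 was 1 of these 4. AT4G33420, known from xylem vessels, had 1455, 1460.3 and 1629.6 in *rcb-10* and 1054, 1207 and 1146 in Col-0, without overlap (log2 change 0.42, adjusted p = 0.0661 in limma). AT4G33420 passed under 5 alternatives, median centring among them (log2 change 0.59, adjusted p = 0.0262 in limma). AT2G22420, known from lignified tissue, had 223, 250.1 and 265 in *rcb-10* and 316, 243 and 327 in Col-0. PRX25 (AT2G41480), known from stem lignin, had 86.2, 64.8 and 89.8 in *rcb-10* and 123, 92.9 and 62.4 in Col-0. The groups of AT2G22420 and PRX25 overlap. Of 5 peroxidases of the Casparian strip and endodermis, 3 were measured, of which PRX72 was higher, while AT4G11290 and AT1G44970 did not pass. AT1G44970 had 392, 570.3 and 545 in *rcb-10* and 338, 430.0 and 505 in Col-0, with overlapping groups. Neither of the 2 measured genes of 6 listed for the response to pathogens and wounding passed, and 2 more of the 6, PRXCA and PRXCB, share a probe set that was higher in *rcb-10* and is described apart. AT1G14550 had 56.5, 62.9 and 67.2 in *rcb-10* and 32.9, 56.9 and 67.9 in Col-0. AT5G06730 had 41.1, 86.4 and 56.1 in *rcb-10* and 24.2, 54.8 and 23.4 in Col-0. Both were close to background on all arrays and overlapped between genotypes. The anther gene AT4G16270 had 41.1, 48.8 and 58.1 in *rcb-10* and 36.1, 27.4 and 36.7 in Col-0, and neither it nor PER36 passed.

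**Figure D4:**
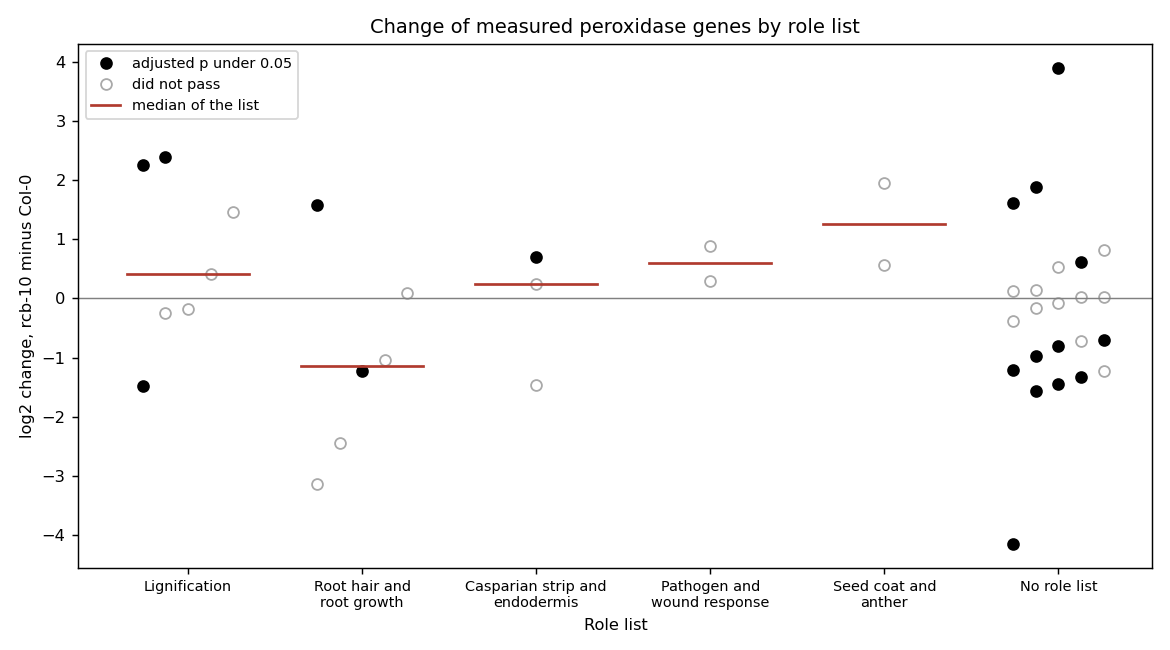
Log2 change (*rcb-10* minus Col-0) of the 43 measured peroxidase genes by role list; filled points passed an adjusted p under 0.05, open points did not, and red lines are medians of the lists. Both directions occur among the lignification genes (median 0.42), and 4 of 6 root hair and root growth genes lie below −1 (median −1.13). Of these 4 only AT5G17820 passed, and the lowest, AT3G49960, is below background on every *rcb-10* array. The upper of the seed coat and anther points, AT3G50990, is below background on all 6 arrays.

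Root hair and root growth genes were the list with the lowest median, among lists chosen with earlier results of these data known. Of 9 listed, 6 were measured, with a median log2 change of −1.13. AT5G39580 was higher and AT5G17820 lower, and 4 did not pass. Past the adjusted p at any fold, 6.76% of all probe sets were higher and 10.2% lower. AT4G26010, known from the growth of root hairs, gave 74.7, 117 and 19.7 in *rcb-10*, against 405, 199 and 339 in Col-0. Its *rcb-10* replicate 3 was below background, all *rcb-10* arrays were below all Col-0 arrays, and it did not pass (log2 change −2.44, standard error 0.70, adjusted p = 0.0695 in limma, but −2.05 and 0.0474 with low signals raised to background). AT1G30870 gave 157, 310.5 and 173 in *rcb-10*, against 441, 336 and 499.7 in Col-0 (log2 change −1.05, adjusted p = 0.0741 in limma), and its *rcb-10* replicate 2 came close to the lowest Col-0 array. AT5G64100, also known from root hairs, gave 4614, 4367 and 4485 in *rcb-10*, against 4497, 4239 and 3911 in Col-0. Its groups overlap, and the 95% interval of its log2 change was −0.18 to 0.37.

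The 2 root hair markers measured were lower in *rcb-10*, where 10.2% of all probe sets were lower past the adjusted p at any fold. Of 8 listed markers 2 each have a probe set assigned to that gene alone, the expansin genes EXPA7 and EXPA18, both known as root hair genes. EXPA7 (AT1G12560) gave 100.04, 69.7 and 88.3 in *rcb-10*, against 217, 138 and 185 in Col-0 (log2 change −1.06, standard error 0.23, adjusted p = 0.0328 in limma). EXPA18 (AT1G62980) gave 60.2, 63.5 and 59.8 in *rcb-10*, against 185, 158 and 178 in Col-0 (log2 change −1.50, standard error 0.12, adjusted p = 0.00433 in limma). Both were lower on every *rcb-10* array than on any Col-0 array, as were 23.1% of all probe sets. Both were above background on all 6 arrays, and their summed signal was 133 to 160.2 in *rcb-10* and 297 to 402 in Col-0. PYK10, the 1 measured marker of 11 listed for the root, overlapped between genotypes (log2 change −0.09, adjusted p = 0.677 in limma). The part of these markers in the changes of the peroxidase genes was not tested. EXPA7 kept its call only in the refit without Col-0 replicate 2 (highest adjusted p over the refits 0.0914), and it did not pass with arrays centred on their medians (0.0535) or after quantile normalization (0.0540).

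**Figure D5:**
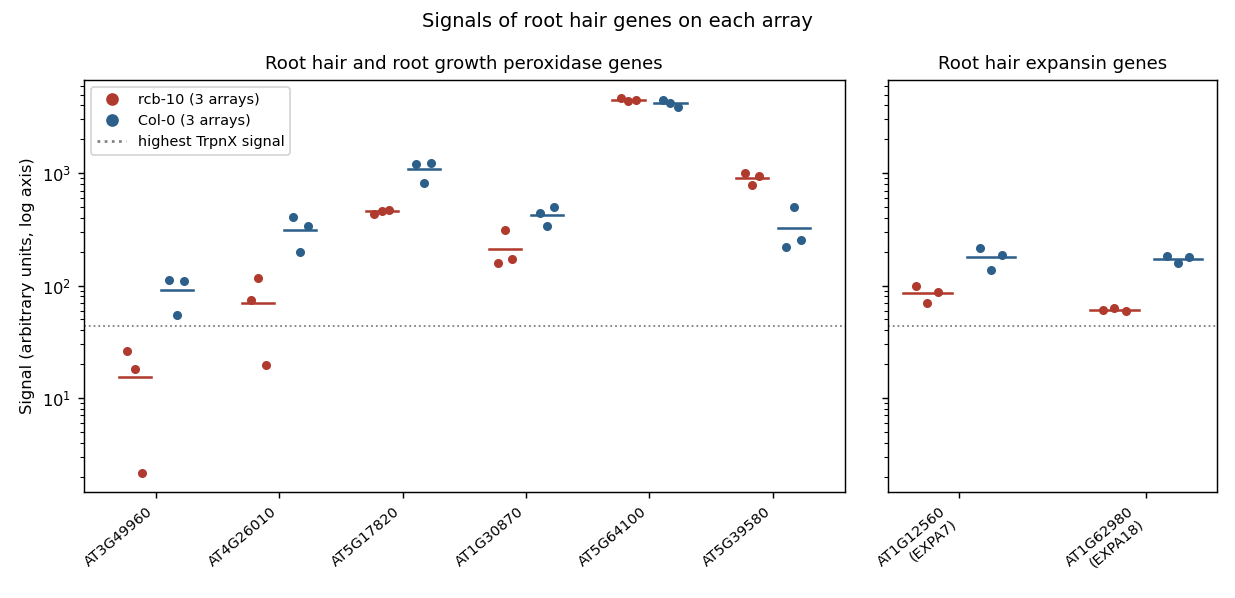
Signals on each array (arbitrary units, log axis) of the 6 measured root hair and root growth peroxidase genes and of the expansin genes EXPA7 and EXPA18; points are arrays, short lines are means of 3 arrays, and the dotted line is the highest TrpnX signal, 43.8. In AT3G49960, AT4G26010, AT5G17820, AT1G30870 and both expansin genes all *rcb-10* arrays lie below all Col-0 arrays, AT5G64100 overlaps and AT5G39580 is higher in *rcb-10*. Over all probe sets, the genotypes did not overlap for 40.6%.

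Peroxidase genes are often arranged as neighbours on a chromosome. Among the 60, 11 pairs have at most 1 protein-coding gene between them in the TAIR10.1 annotation, and both genes have a probe set of their own in 3 pairs. PRX71 and AT5G64100, with 1 gene between them, had unlike changes: the 95% interval of the log2 change was 1.68 to 2.82 for PRX71 and −0.18 to 0.37 for AT5G64100, and the intervals do not overlap. The difference itself was not tested. Beside Prx37, its direct neighbour AT4G08780 had 49.9, 35.1 and 38.2 in *rcb-10* and 38.0, 45.6 and 37.4 in Col-0, near background in both genotypes. AT5G19890, the neighbour of AT5G19880, had 126, 84.4 and 47.9 in *rcb-10* and 52.9, 35.6 and 48.8 in Col-0 and did not pass (adjusted p = 0.201 in limma).

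The probe sets that match 2 peroxidase genes were all called higher in *rcb-10*, and their signal cannot be divided between the genes of a pair. The same rule called 2.80% of all probe sets higher, and 6.76% were higher past the adjusted p at any fold. The probe set of AT2G18140 and AT2G18150 gave 280.1, 362 and 332 in *rcb-10*, against 45.4, 47.7 and 32.1 in Col-0, where 1 of 3 arrays was below background. That is a 7.85-fold difference (log2 change 2.97, standard error 0.20, adjusted p = 0.00433 in limma). For AT4G37520 and AT4G37530, signals were 2019, 1597 and 1617 in *rcb-10*, against 722, 600.4 and 520.2 in Col-0 (log2 change 1.51, adjusted p = 0.00865 in limma). For AT2G38380 and AT2G38390 they were 1569, 1261 and 1348 in *rcb-10*, against 737, 482 and 702 in Col-0 (log2 change 1.14, adjusted p = 0.0211 in limma). No array of the 2 genotypes overlapped in any of the 3 probe sets. Over all probe sets the genotypes did not overlap for 40.6%, with *rcb-10* the higher for 17.4%. Leaving out a single *rcb-10* array, whichever it was, ended the call of the last of them (highest adjusted p over the refits 0.0669).

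PRXCA (AT3G49110) and PRXCB (AT3G49120), peroxidase genes known for the oxidative burst against pathogens and for cell elongation, share a probe set that is named only through the study's table of changed probe sets. It gave 6238, 5957 and 6525 in *rcb-10*, against 1711, 1532 and 2086 in Col-0. Since that table was drawn up from these same arrays, the difference is given as a description and is not counted with the 43.

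Other genes of the pathway were measured too sparsely to describe it. Of 18 listed genes of monolignol synthesis, which makes the lignin precursors that peroxidases oxidize, 2 were measured and neither passed. HCT, an enzyme of that pathway, had 1479.7, 1681 and 1814 in *rcb-10* and 2796, 2120.2 and 2912 in Col-0, without overlap (log2 change −0.65, adjusted p = 0.0563 in limma), and CCR2, a cinnamoyl-CoA reductase, had overlapping groups (adjusted p = 0.344 in limma). Of 17 laccase genes, whose products also oxidize lignin precursors, only LAC16 was measured, and it was below background on all 6 arrays. NADPH oxidases produce the superoxide from which hydrogen peroxide forms, and 3 of 10 were measured. Of these AT4G25090 was lower, with 12.1, 33.5 and 12.6 in *rcb-10*, all below background, against 76.8, 51.7 and 97.5 in Col-0, at least 1.66-fold (adjusted p = 0.0377 in limma). It kept its call only in the refit without *rcb-10* replicate 2 (highest adjusted p over the refits 0.110) and not with low signals raised (0.116), and the other 2 did not pass. Of 11 ascorbate peroxidases and catalases, which remove hydrogen peroxide inside the cell, 2 were measured, SAPX and TAPX of the chloroplast, and neither passed (adjusted p = 0.142 and 0.296 in limma). GSO1, a receptor kinase needed for the Casparian strip, was the 1 gene measured of 8 listed for its scaffold and did not pass (adjusted p = 0.476 in limma). None of 7 superoxide dismutase genes has a probe set assigned to it alone in the probe table used.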

How the data were processed

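RNA of whole seedlings was hybridized to 6 Affymetrix ATH1 arrays, 3 per genotype. The authors' methods name GeneSpring GX and RMA, but the deposited intensities are linear and share a trimmed mean (2% left out at each end). The step behind this scaling was not given in the sources used here. Genotypes were compared on log2 intensities with limma 3.58.1 in R 4.3.3, over the 22746 probe sets other than 64 array controls, with no filter or further normalization. Genes were called at the methods' thresholds of 2-fold and an adjusted p of 0.05. The steps were tested on simulated data, and the number of arrays limits the precision.

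A probe table assigns 1 symbol to 13513 of these probe sets, several to 503 and none to 8730, and 13436 have 1 locus in the TAIR10.1 gene table. A gene without an assigned probe set here can still have one on the array. The genes and lists were chosen with earlier results of these data known. Every gene past the adjusted p is named with all its values, as are those sharing its role list or neighbourhood. The other genes named were chosen after their values were seen. Where all arrays of a genotype lay at or below 43.8, those signals were raised to that level to bound the fold. Tables and plots were made with Python 3.11.15, pandas 2.3.3 and matplotlib 3.10.9. Probe-level values were not used here.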

Additional observations from a re-analysis of the deposited data

How the results depend on the processing

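The alternatives were quantile normalization, median centring, leaving out the dimmest 25% of probe sets, raising low signals to background, only probe sets of 1 gene, a variance trend with robust variances, the methods' t-test, the replicate number as a block, other thresholds, and leaving out each array. Each measured gene has 1 probe set, so a mean over probe sets was not run. No change of the 18 genes that passed turned its direction. Median centring shifted all log2 changes by 0.17, and 6 genes were higher and 7 lower as before. The genes called higher numbered 3 at an adjusted p under 0.01, and 3 to 6 when an array was left out. The genes called lower numbered 11 with a variance trend and 4 at an adjusted p under 0.01, and 6 to 7 when an array was left out. Over all probe sets, those called in either direction numbered 1642 in the main setting, 1821 with a variance trend and 1435 with low signals raised. Those past the adjusted p at any fold numbered 8 at 0.01 and 10 to 14 when an array was left out. With the replicate block no gene passed in limma, whether counted as higher (0), lower (0) or at any fold (0), nor did any of the 22746 probe sets (0), while 28 of the 43 genes and 6823 of all probe sets had an unadjusted p under 0.05. The methods' t-test without the block called 5 higher and 6 lower. Of the 18 genes, AT3G28200 did not pass after median centring, nor did PRX72, AT1G68850 and AT3G28200 among probe sets of 1 gene, and 5 did not pass in the methods' t-test. Same-numbered arrays did not deviate together (correlations 0.03, −0.02 and 0.02), which does not settle whether they were grown or processed together. AT2G39040 was among the probe sets left out as dimmest. Of the genes that did not pass, AT1G30870, AT2G34060, AT2G35380, AT3G49960, AT3G50990, Prx37, AT4G11290, AT4G26010 and AT4G33420 passed under at least 1 alternative, and 9 genes were called lower with low signals raised. For the expansin genes, AT4G25090 and the probe sets of gene pairs, the alternatives were chosen after seeing the data. Signals near background limit what can be said of 15 of the 43 genes.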
